A study of Mus musculus and Homo sapiens with 56 samples.

Results

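Tlx2, Htr5a, Clgn, Slfn8, Gm33027 and Cacng5 are 6 of the 52459 genes in the RNA-seq count table, and they were selected on their read counts: expressed in wild-type (WT) mouse embryonic stem cells, with almost no reads in D395A cells, and without an exon opposite that of another gene. The D395A libraries held 0 to 8 reads of each gene and the WT libraries 148 to 510. This difference in RNA chose the genes, so it is described here and not tested. Their neighbours, their relatives by family or pathway and the m6A peaks around them were not used to choose the 6 genes. The lists of relatives were, however, drawn up with earlier results of these data known.

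The series studied N6-methyladenosine (m6A) on RNA together with the repressive histone mark H3K9me2, in 56 samples of mouse and human cells. Used here were RNA-seq of 2 D395A and 2 WT libraries, and m6A immunoprecipitation of chromatin RNA with 1 immunoprecipitated and 1 input library from D395A cells and 2 of each from WT cells. D395A cells carry METTL3, the m6A methyltransferase, with its catalytic centre altered by the D395A substitution, and the WT cells are the line E14TG2a. Both genotypes are labelled untreated, and the mouse stem cells were kept on gelatin, with leukemia inhibitory factor and inhibitors of MEK and GSK3β. How the D395A line was made, and whether it is 1 clone, the sources used here do not say. Nor do the labels say that the replicates came from separate cultures, so p-values measure the spread between these libraries, which may be technical.

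METTL3 adds a methyl group to adenosines in RNA while it is being made, and reader proteins such as YTHDC1 in the nucleus, or factors that send RNA to decay, then bind the mark. In messenger RNA m6A is known to gather in long internal exons and in the last exon near the stop codon. Stem cells without METTL3 activity are known to keep many pluripotency transcripts that are normally turned over. The 6 genes come from different families. Tlx2 encodes a homeobox factor of enteric neurons, Htr5a a serotonin receptor, Clgn a testis chaperone, Slfn8 a Schlafen protein and Cacng5 a subunit that travels with AMPA receptors, while Gm33027 is annotated as a long non-coding RNA by RefSeq.

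The RNA-seq libraries held 12743677 and 18151353 reads assigned to genes in D395A cells, and 13953069 and 19246342 in WT cells. Markers of embryonic stem cells were present in both genotypes, with a summed level over 7 genes of 1840 and 1770 CPM (reads scaled to library size) in D395A libraries and 3350 and 3240 CPM in WT libraries. Of those 7 genes, 6 fell in D395A at an adjusted p under 0.05 (quasi-likelihood test of edgeR, adjusted after Benjamini and Hochberg, here and throughout) and Sox2 did not pass (adjusted p = 0.3). The 7 markers of neurons summed to 94.9 and 95.2 CPM in D395A and 283 and 244 CPM in WT, and of 5 tested 2 fell and 1 rose. For male germ cells the sums were 259 and 210 CPM in D395A and 66.6 and 68.5 CPM in WT, with Stra8 making up most of the D395A level, and of 5 tested 2 fell and 3 rose. Lymphocyte markers summed to 17.3 and 19.6 CPM in D395A and 18.5 and 17.8 CPM in WT, and fibroblast markers to 5.33 and 4.68 CPM in D395A and 7.32 and 7.14 CPM in WT. Of 3 tested lymphocyte markers 1 fell and 2 rose, and of 5 tested fibroblast markers 2 fell and 1 rose. Over all 17778 tested genes, 34.3% fell and 36.8% rose, so such small counts alone do not show a shift of a cell type. No marker of the 5 lists was at 0 in all 4 libraries. The part that these marker differences have in the values below was not tested, and fewer cells of a type cannot be told apart from less RNA per cell. Reads of Mettl3 came to 30.6 and 33.9 CPM in D395A libraries and 36.2 and 35.5 CPM in WT libraries, which does not check the genotype because a substitution of 1 codon leaves its reads countable.

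Slfn8 is the member with close relatives beside it, and the regions before Slfn8 and Slfn9 are shown because both genes had less RNA in D395A cells and their start regions resemble each other. Each line runs from 250 bases before to 50 bases after the RefSeq start (GRCm38.p6, the assembly of mm10), at chr11:83020761-83021060 for Slfn8 and chr11:82991781-82992080 for Slfn9, both on the minus strand and written 5′ to 3′. Capitals mark TTTC followed by 2 bases of any kind and TTTC again, the letters of an interferon-stimulated response element, searched on both strands and chosen after the sequences had been seen.
Slfn8: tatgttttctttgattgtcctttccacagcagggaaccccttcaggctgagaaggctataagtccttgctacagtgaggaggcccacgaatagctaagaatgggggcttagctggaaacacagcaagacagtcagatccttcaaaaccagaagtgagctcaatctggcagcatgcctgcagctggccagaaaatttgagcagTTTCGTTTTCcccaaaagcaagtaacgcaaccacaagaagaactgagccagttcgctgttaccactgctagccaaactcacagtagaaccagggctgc
Slfn9: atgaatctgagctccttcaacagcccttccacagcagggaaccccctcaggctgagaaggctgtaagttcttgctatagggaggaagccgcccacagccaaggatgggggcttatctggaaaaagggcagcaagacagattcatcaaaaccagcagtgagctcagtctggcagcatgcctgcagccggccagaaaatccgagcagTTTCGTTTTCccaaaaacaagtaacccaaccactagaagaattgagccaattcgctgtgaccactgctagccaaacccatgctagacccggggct

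Of 292 aligned bases in these 2 regions, 248 were identical (84.9%). The other pairs aligned in the same way, among Htr5a, Cacng5 and Schlafen promoters, reached 51.3% to 68.7%. The match TTTCGTTTTC began 48 bases before the start in Slfn8 and 45 bases before it in Slfn9. Such letters on either strand were in 3.44% of the 32851 promoters of the RefSeq table. The promoter of Slfn5 held them on the other strand, while those of Slfn1, Slfn2, Slfn3, Slfn4 and Slfn14 did not. Promoters were given for 3 of the 6 genes, Htr5a, Slfn8 and Cacng5. The first windows of Htr5a and Cacng5 held 14 and 17 CpG pairs, that of Slfn8 held 4, and the median over all promoters was 7. None of these windows held CACGTG, an E-box that is in 7.15% of all promoters, or GCGGGAA, an E2F-type site that is in 4.6%. A match, or the lack of one, describes the letters in the window and not a factor's binding.

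Tlx2 (chromosome 6, 83068324 to 83070293, minus strand, mm10; 2 exons and 1582 exonic bases) encodes a homeobox transcription factor needed for normal enteric neurons in mice. The D395A libraries held 5 and 2 reads of Tlx2 and the WT libraries 351 and 472. At the scale of library size these were 0.38 and 0.106 CPM in D395A and 26.2 and 25.3 CPM in WT. Both D395A libraries lay far below both WT libraries, and the WT pair was close together. The D395A level was 0.852% of the WT level (exact 95% interval for counting error 0.342 to 1.76%), a fitted log2 difference of -6.82. With so few reads, 1 library sets the size: the log2 difference was -7.79 when D395A replicate 1 was left out and -6.05 when the other one was.

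Htr5a (chromosome 5, 27842149 to 27855088, plus strand; 2 exons and 5376 exonic bases) encodes the 5-HT5A serotonin receptor, which signals through inhibitory G proteins in the nervous system. Reads numbered 3 and 5 in D395A and 355 and 510 in WT, or 0.228 and 0.266 CPM in D395A and 26.5 and 27.4 CPM in WT. Both D395A libraries lay far below both WT libraries. The D395A level was 0.927% of WT (0.399 to 1.83%), a log2 difference of -6.71.

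Clgn (chromosome 8, 83389867 to 83428552, plus strand; 15 exons and 4025 exonic bases) encodes calmegin, an endoplasmic reticulum chaperone of male germ cells that mice need for sperm to bind and fertilize eggs. The D395A libraries held 5 and 2 reads and the WT libraries 273 and 404. In CPM these were 0.38 and 0.106 in D395A and 20.4 and 21.7 in WT, so the groups did not overlap. The D395A level was 1.04% of WT (0.415 to 2.15%). The log2 difference was -6.54, with -7.50 when D395A replicate 1 was left out and -5.76 when D395A replicate 2 was left out. Male germ cell markers moved both ways beside it. Stra8, a meiosis gene, had 211 and 169 CPM in D395A and 9.56 and 9.28 CPM in WT, while Dazl, a germ cell RNA-binding protein, had 15.3 and 13.0 CPM in D395A and 36.4 and 37.4 CPM in WT, and both passed the test (adjusted p = 5.05e-13 and 8.94e-09).

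Slfn8 (chromosome 11, 83002158 to 83020810, minus strand; 6 exons and 4091 exonic bases) belongs to the long Schlafen proteins, a family studied in immune cells of mice and known for a helicase-like region. It kept the most reads of the 6 genes, 8 and 8 in D395A libraries, against 264 and 379 in WT libraries. That is 0.609 and 0.425 CPM in D395A and 19.7 and 20.3 CPM in WT. The D395A level was 2.49% of WT (1.42 to 4.08%), a log2 difference of -5.30. Slfn8 has near relatives on both sides, and reads that fit more than 1 Schlafen gene may have been shared out or dropped in the counting, so its level is uncertain to that extent.

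Gm33027 (chromosome 7, 129398102 to 129403090, minus strand; 2 exons and 4664 exonic bases) had 3 and 7 reads in D395A and 302 and 408 in WT. These were 0.228 and 0.372 CPM in D395A and 22.6 and 21.9 CPM in WT, with no overlap of the groups. The D395A level was 1.41% of WT (0.674 to 2.61%), a log2 difference of -6.12.

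Cacng5 (chromosome 11, 107874605 to 107915055, minus strand; 7 exons and 3834 exonic bases) encodes a transmembrane protein that modulates AMPA-type glutamate receptors, named for its likeness to the gamma subunit of muscle calcium channels. D395A replicate 1 held 0 reads and D395A replicate 2 held 2, against 148 and 230 in the WT libraries. The levels were 0 and 0.106 CPM in D395A and 11.1 and 12.3 CPM in WT. Summed over libraries the D395A level was 0.53% of WT (0.064 to 1.93%), or 189-fold lower with an interval of 51.8 to 1560. The fitted log2 difference of -7.38 became -6.66 without D395A replicate 1. Without D395A replicate 2 no D395A read was left, and the fitted -10.47 then depends on the prior count and is no bound.

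**Figure D1:**
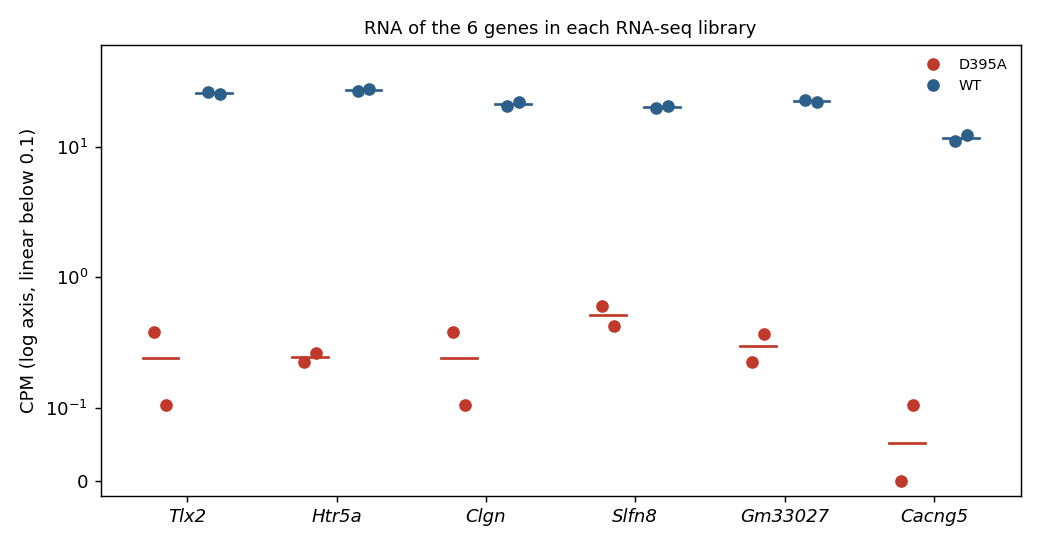
RNA of the 6 genes in each RNA-seq library, in CPM on a log axis that is linear below 0.1. Points are libraries (2 D395A on the left in red, 2 WT on the right in blue) and lines are means. All D395A points lie at or under 0.609 CPM and all WT points at or over 11.1 CPM.

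Per kilobase of exon, a scale on which genes can be compared, Tlx2 stood highest in WT at 16.3 ± 0.401 CPM per kb (mean ± SD, n = 2 libraries here and below). Clgn at 5.23 ± 0.225, Htr5a at 5.01 ± 0.111, Slfn8 at 4.90 ± 0.106 and Gm33027 at 4.77 ± 0.102 followed, and neighbours in this order differed by no more than their summed SDs. Cacng5 was lowest at 3.05 ± 0.237. Among the 17778 genes tested, the WT levels per kb ranked at the 42.8th percentile for Cacng5, the 50.6th to 52.2nd for the middle 4 and the 76.8th for Tlx2, so these were ordinary levels for WT cells. In D395A cells the levels per kb lay between 0.0139 for Cacng5 and 0.154 for Tlx2.

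All 6 genes passed the filter on low counts, and each passed it through its WT reads alone. By size of the log2 difference they stood at ranks 16, 26, 29, 34, 36 and 52 from the largest fall among the 17778 tested genes, in the order Cacng5, Tlx2, Htr5a, Clgn, Gm33027 and Slfn8. Among 6152 genes that averaged 10 CPM or more over the 4 libraries, with no exonic overlap and more than 3 reads in each group, Tlx2, Htr5a, Clgn, Gm33027 and Slfn8 held ranks 1 to 5. Just outside were Lncenc1, a non-coding RNA known from naive stem cells, with a log2 difference of -5.24, Gm13110 with -5.12 and Pnma5 with -5.08. Lncenc1 was far from silent, at 19.1 ± 2.73 CPM in D395A and 730 ± 3.92 CPM in WT. Gm13110 averaged 0.806 ± 0.0635 CPM in D395A and 28.6 ± 0.261 CPM in WT, and Pnma5 1.23 ± 0.0875 CPM in D395A and 41.4 ± 0.81 CPM in WT. Cacng5 lay outside that selection because of its 2 D395A reads and its mean under 10 CPM. Of 9825 tested genes with a WT mean of at least 10 CPM, 26 averaged under 1 CPM in D395A (0.265%), and 22 of these had no overlap on the opposite strand, the 6 genes among them.

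The gene with the most similar profile over the 4 libraries, by Euclidean distance on log2(CPM + 0.5) among 12371 tested genes without opposite-strand overlap, was T (Brachyury, the mesoderm factor) for 3 of the 6. T had 0.228 and 0.159 CPM in D395A and 18.9 and 14.2 CPM in WT, at a distance of 0.77 to Gm33027, 0.98 to Tlx2 and 1.06 to Htr5a. Xlr3b, of an X-linked family, was nearest to Clgn (distance 0.63), with 0.38 and 0.159 CPM in D395A and 14.1 and 17.0 CPM in WT. For Slfn8 it was Mapk8ip2, a scaffold of JNK signalling, at a distance of 0.75, with 0.456 and 0.585 CPM in D395A and 14.3 and 14.1 CPM in WT. For Cacng5 it was the olfactory receptor gene Olfr836 at a distance of 0.40, with 0 and 0.106 CPM in D395A and 8.67 and 10.5 CPM in WT. That these 4 genes were close to 0 in D395A and above 8 CPM in WT follows from the search, which used the same 4 libraries.

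In the m6A peak lists, 5 of the 6 gene bodies held WT peaks, 13 in all, and none held a D395A peak. Over all tested genes, 52.6% held a D395A peak and 66.5% a WT peak, and 26.2% held a WT and no D395A peak. Among the 2107 genes called at least 2-fold lower in D395A, 36.5% held a D395A peak and 61.7% a WT peak. The lists differ in strength: the D395A list holds 38823 peaks with a median fold enrichment of 2.66, of which 13.6% reach a q of at most 0.05, and the WT list 48445 peaks with a median of 6.31, all of which do. There is 1 list a genotype and so no replicate check, the D395A list rests on 1 immunoprecipitated library against 2 for WT, and the 6 genes themselves had almost no RNA in D395A cells. Whether the few remaining D395A transcripts carried m6A cannot be told from these lists. Fold enrichments below are the authors' values for single peaks.

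Each of the 13 WT peaks covered exonic bases, and 9 of them reached the last exon. These shares were not worked out for the whole WT list, so they cannot be read as a trait of these genes. Some peaks, such as both in Htr5a, were wholly exonic, while others ran well beyond exons. In the Slfn8 peak chr11:83013209-83013703, 135 of 495 bases were exonic, and in the Tlx2 peak 1582 of 3397. Gm33027 had the strongest of the 13, chr7:129400025-129401762, with 25.5-fold enrichment, higher than 98.8% of all WT peaks and wholly in the last exon. A second Gm33027 peak had 4.39-fold enrichment, and the pair covered 47.1% of its exonic bases. In Htr5a both peaks were in the last exon, chr5:27850968-27851757 with 24.2-fold enrichment (higher than 98.4% of WT peaks) and chr5:27852318-27852947 with 6.66-fold. Gm33027 and Htr5a thus carried peaks among the highest of the WT list.

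Cacng5 carried its 2 peaks at the far end of a gene of 40451 bases, chr11:107876501-107877758 with 16.5-fold and chr11:107875737-107876241 with 7.68-fold enrichment, both reaching the last exon. Tlx2 was covered whole by 1 broad peak of 3397 bases, chr6:83067933-83071329, with 9.04-fold enrichment. Slfn8 had 6 peaks over its body with enrichments of 2.87 to 12.5-fold, covering 68.9% of its exonic bases, and the highest of these and the 10.8-fold peak were at its last exon. Clgn, at a WT level per kb like that of Htr5a, had no peak in either list. The 6 genes therefore shared the near loss of RNA but not the presence of a WT peak.

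**Figure D2:**
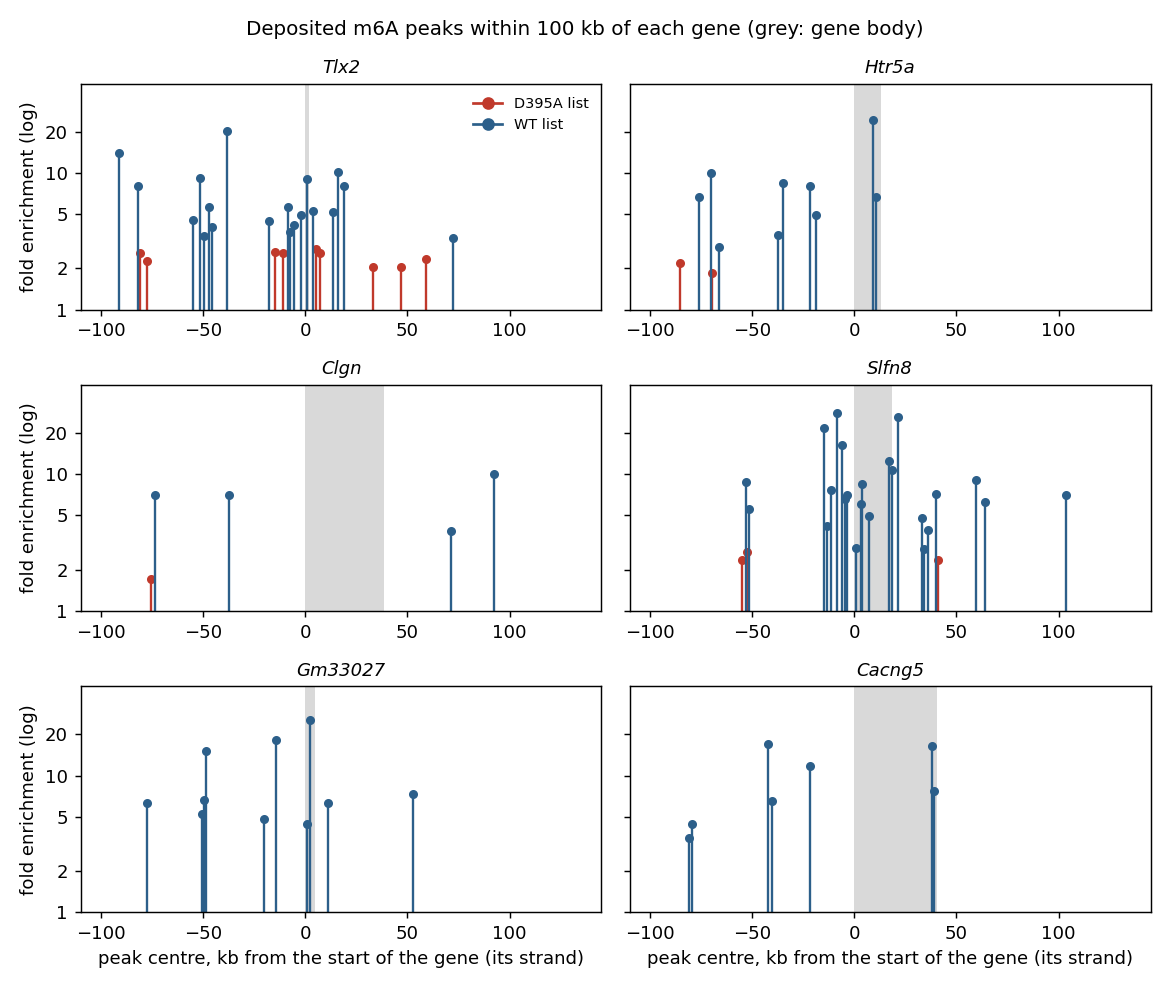
Deposited m6A peaks within 100 kb of each gene, as fold enrichment (log axis) against the distance of the peak centre from the start of the gene in kb along its strand. Red marks the D395A list, blue the WT list and grey the gene body. D395A peaks number 15 and stay at or under 2.78-fold, WT peaks number 72 and reach 28.3-fold near Slfn8, and only blue peaks stand in the grey bodies.

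Within 100 kb on either side, the D395A list held 15 peaks and the WT list 72. No D395A peak among the 15 had a q of at most 0.05, whereas all 72 WT peaks did. The D395A peaks were 9 around Tlx2, 2 around Htr5a, 1 around Clgn, 3 around Slfn8 and 0 around Gm33027 and Cacng5, and the WT peaks were 19, 9, 4, 23, 10 and 7 in the order Tlx2, Htr5a, Clgn, Slfn8, Gm33027 and Cacng5. Some lay outside every gene of the count table, 4 in the D395A list and 19 in the WT list. Of those WT peaks, 7 were around Gm33027, 6 of them upstream of it between 14.6 and 77.7 kb, with enrichments up to 18.2-fold. Around Htr5a 4 lay 18.9 to 37.2 kb upstream, with 3.50 to 8.41-fold enrichment. A WT peak of 26.4-fold lay outside the genes between Slfn8 and Slfn9, 21.4 kb from the start of Slfn8. The count table holds no RNA value for these places.

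The neighbours of the 6 genes were tested with the whole table. Within 100 kb lay 63 other genes of the table, of which 27 could be tested, and 15 of these fell in D395A (55.6%) while 6 rose (22.2%) and 6 did not pass the test. Over all 17778 tested genes, 34.3% fell and 36.8% rose, and the median log2 fold change was 0.00, against -0.39 for the neighbours. Without exonic overlap on the opposite strand, 12 of 15 tested neighbours fell and 3 rose, beside 37.1% and 32.3% of the 12377 tested genes of that kind. Neighbours of 1 gene share a place in the genome, and no test of the set was made. Gm43981 and Mir7679, both counted as falling, lie inside M1ap and Slfn9, which also fell. Leaving out the neighbours of Slfn8, 10 of 22 fell (45.5%) and 6 rose. Leaving out those of Tlx2, the other large group, 9 of 10 fell and 1 rose. A difference in how D395A and WT libraries were made or counted cannot be told apart from genotype, and D395A libraries gave raised values for many genes that overlap a gene on the other strand, so such overlap is given beside each neighbour.

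All 5 tested neighbours of Slfn8 on chromosome 11 fell, with a median log2 fold change of -2.92. Of these, Slfn10-ps, Slfn9 and Slfn5 belong to the Schlafen family, while Mir7679 and Nle1 do not. Slfn10-ps, a Schlafen pseudogene 7320 bases upstream, had 0.685 and 0.638 CPM in D395A and 11.7 and 10.1 CPM in WT (log2 fold change -4.03 ± 0.11 SE, adjusted p = 2.10e-09). Here and below the SE describes the spread of the libraries on log2(CPM + 0.5), and is not the error of the fitted value. The added 0.5 damps that spread in genes with few reads. Slfn9, a long Schlafen gene 10328 bases downstream, had 13.1 and 12.9 CPM in D395A and 102 and 94.8 CPM in WT (-2.92 ± 0.06, adjusted p = 8.34e-13). Slfn9 thus kept 172 and 242 reads in the D395A libraries, where Slfn8 had 8 and 8. Slfn5, with 8.84% of its exonic bases overlapped, had 1.45 and 1.06 CPM in D395A and 4.63 and 4.02 CPM in WT (-1.80 ± 0.18, adjusted p = 4.15e-05).

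Mir7679 lies inside Slfn9, so its reads cannot be told from those of its host. It held 0.0761 and 0 CPM in D395A and 0.672 and 0.698 CPM in WT (adjusted p = 4.28e-04), and its log2 value of -4.15 moved to -6.54 without D395A replicate 1. Nle1, a ribosome assembly factor 93747 bases away with 1.05% overlap, fell the least of the 5, with 28.7 and 29.6 CPM in D395A and 41.9 and 43.0 CPM in WT (-0.54 ± 0.03, adjusted p = 1.50e-05). Outside the 100 kb, Slfn3 had 0.533 and 0.532 CPM in D395A and 1.94 and 1.23 CPM in WT (-1.53 ± 0.25, adjusted p = 0.00404), a call that was lost without WT replicate 1 and in DESeq2. Slfn1, Slfn2, Slfn4, Slfn14 and Slfnl1 had too few reads to be tested, and only Slfn4 among them had fewer reads in both D395A libraries (0 and 0) than in both WT libraries (4 and 7). All 4 tested relatives on the Schlafen list therefore fell and none rose, with a median log2 fold change of -2.36. Reads shared between these similar genes may have been assigned to 1 of them or dropped, and the sources used here do not give the rule used in the counting.

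**Figure D3:**
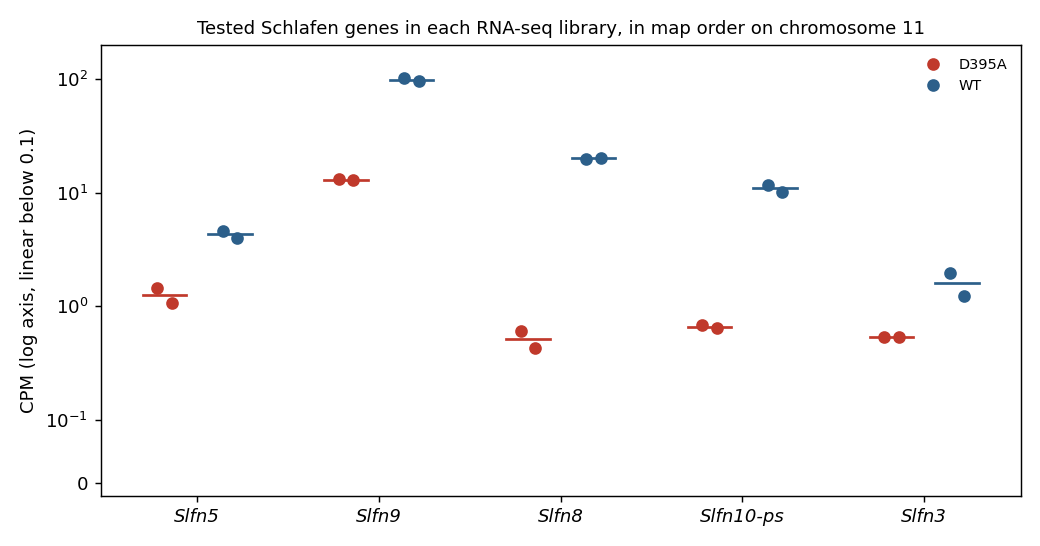
RNA of Slfn8 and the 4 other tested Schlafen genes in each library, in CPM on a log axis that is linear below 0.1, in map order. Red points on the left are D395A libraries, blue points on the right WT libraries, and lines are means. D395A points lie under WT points in all 5 genes, and Slfn9 stays near 13 CPM in D395A.

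Around Tlx2 the changes went both ways. Of 17 tested neighbours 6 fell (35.3%), 5 rose (29.4%) and 6 did not pass the test. These shares lay near the 34.3% that fell and the 36.8% that rose among all tested genes, so the counts alone show no local pattern. Chromosome 6 as a whole had 23.9% of tested genes falling. Its median on the log2 scale was 0.26, and that of these neighbours was -0.04. The nearest tested neighbours of Tlx2 on either side both fell. Dqx1, a helicase-like gene 1006 bases downstream, had 4.11 and 3.99 CPM in D395A and 8.07 and 6.87 CPM in WT (log2 fold change -0.88 ± 0.11, adjusted p = 5.71e-04). Pcgf1, a subunit of a Polycomb repressive complex 7576 bases upstream, had 15.7 and 14.5 CPM in D395A and 32.5 and 30.8 CPM in WT (-1.07 ± 0.07, adjusted p = 1.12e-07). Both changes were much smaller than the difference of -6.82 in Tlx2 between them.

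On the downstream side M1ap, a meiosis gene, had 20.1 and 19.6 CPM in D395A and 60.2 and 57 CPM in WT (-1.56 ± 0.04, adjusted p = 3.08e-10). Dok1, an adaptor below tyrosine kinases, had 5.55 and 5.05 CPM in D395A and 16.7 and 16.8 CPM in WT (-1.67 ± 0.06, adjusted p = 4.49e-08). Gm43981, with 0.152 and 0.372 CPM in D395A and 1.34 and 1.61 CPM in WT, fell by 2.38 on the log2 scale (adjusted p = 3.64e-04), and this was -3.23 without D395A replicate 2. It lies inside M1ap on the same strand, so its reads cannot be told from those of its host. Loxl3, Htra2 and Aup1, which lie between these genes and Dqx1, did not pass the test, and 11.6 to 43.7% of their exonic bases are overlapped.

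On the upstream side Mogs, the glucosidase that makes the first cut in N-glycan trimming, rose to 147 and 146 CPM in D395A, against 43.3 and 42.7 CPM in WT (1.77 ± 0.01, adjusted p = 1.09e-11, no overlap). Wdr54 had 10.1 and 6.70 CPM in D395A and 1.42 and 1.61 CPM in WT (2.43 ± 0.29, adjusted p = 9.08e-07), with 27.1% overlap. Ino80b, of a chromatin remodelling complex, had 25.9 and 21.4 CPM in D395A and 12 and 13.5 CPM in WT (0.87 ± 0.16, adjusted p = 1.09e-05), with 5.71% overlap. Of the 5 genes that rose, only Mogs and Wbp1 had no overlap. Wbp1 had 53.6 and 47.0 CPM in D395A and 42.7 and 43.5 CPM in WT (0.21 ± 0.09, adjusted p = 0.0243). Gm44287 had 2.43 and 1.81 CPM in D395A and 1.2 and 1.02 CPM in WT (0.93 ± 0.19, adjusted p = 0.0236, 31.4% overlap). Both lost their calls in 4 of 8 other settings, among them without D395A replicate 1, without WT replicate 1 and without WT replicate 2. Dctn1, a dynactin subunit without overlap, had 110 and 111 CPM in D395A and 138 and 133 CPM in WT (-0.29 ± 0.03, adjusted p = 5.44e-04).

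The remaining genes had few tested neighbours. Paxip1, a chromatin and DNA repair protein upstream of Htr5a, had 177 and 197 CPM in D395A and 250 and 240 CPM in WT (-0.39 ± 0.08, adjusted p = 1.44e-04). The tested neighbours of Clgn were Elmod2, a regulator of ARL GTPases 57381 bases upstream, and Scoc, a Golgi coiled-coil protein gene 1532 bases downstream. Elmod2 had 28.6 and 27.6 CPM in D395A and 48.4 and 53.8 CPM in WT (-0.87 ± 0.08, adjusted p = 2.10e-07), and Scoc 21.8 and 23.2 CPM in D395A and 30.0 and 29.5 CPM in WT (-0.40 ± 0.05, adjusted p = 7.08e-04). Both of these tested genes stayed well expressed. Mgat4d, nearer than Elmod2 at 7547 bases upstream, had 0 reads in both D395A libraries and 1 and 8 in WT, too few to be tested. On chromosome 8 as a whole 53.0% of tested genes fell, with a median log2 fold change of -0.36, beside 34.3% and 0.00 over all autosomes. The chromosomes of the other 5 genes had 23.9 to 35.9% of tested genes falling.

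Cacng5 lies between Prkca and its own relative Cacng4. Prkca (protein kinase C alpha, 0.334% overlap) had 3.27 and 1.75 CPM in D395A and 6.95 and 6.76 CPM in WT (-1.50 ± 0.37, adjusted p = 7.74e-05). Cacng4, 80048 bases downstream, had 4.11 and 0.957 CPM in D395A and 0.448 and 1.13 CPM in WT. Its call as higher (1.52 ± 0.92, adjusted p = 0.0302) rests on D395A replicate 1, without which the log2 fold change was 0.23, and was also lost without WT replicate 1. Gm33027 had 1 other gene within 100 kb, Plpp4, which had too few reads to be tested.

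**Figure D4:**
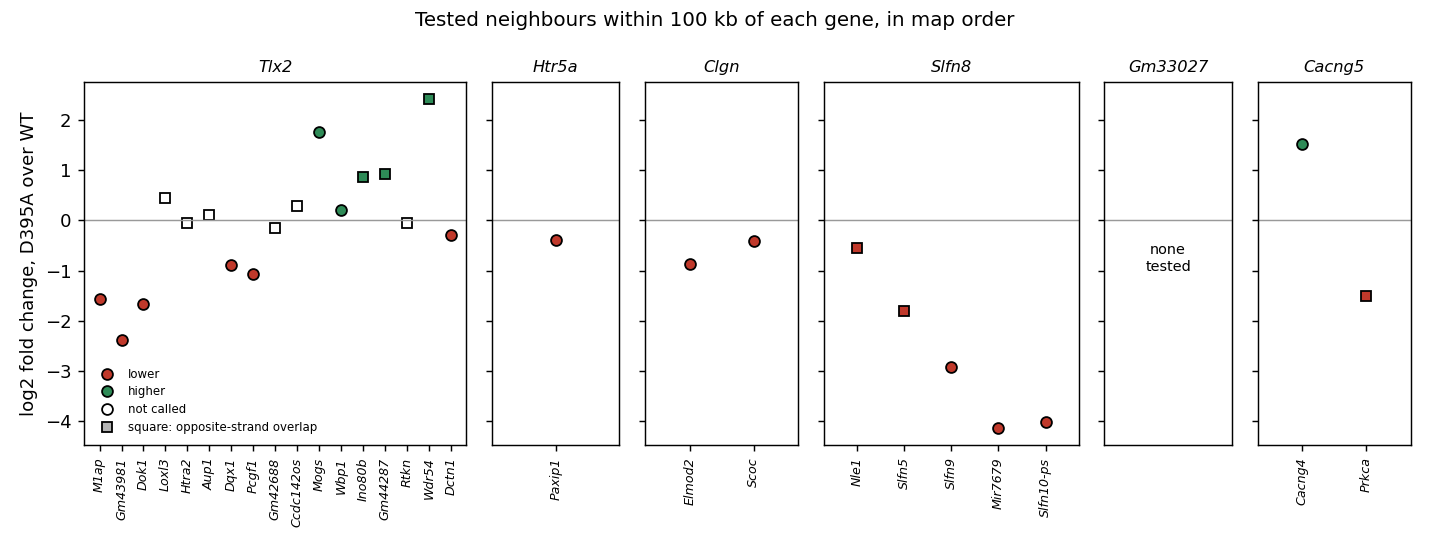
Log2 fold change (D395A over WT) of the 27 tested genes within 100 kb of each of the 6 genes, in map order. Red points fell, green rose and white did not pass the test, and squares have exonic bases overlapped on the opposite strand. All 5 neighbours of Slfn8 lie below 0, while those of Tlx2 lie on both sides.

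The relatives of the 6 genes by family or pathway did not follow them in 1 direction. On 7 lists, 28 tested genes fell and 27 rose, each counted once. Tested were 8 autonomic and enteric, 8 serotonin, 23 lectin chaperone, 4 fertilization, 4 Schlafen, 17 calcium channel and 7 AMPA receptor genes, with some on 2 lists. Over all tested genes 34.3% fell and 36.8% rose, with a median of 0.00. Of 8 tested regulators of autonomic and enteric neurons, the setting in which Tlx2 is known, 3 fell and 3 rose, and their median log2 fold change was 0.98. The count that rose was 9 without D395A replicate 2, 7 without WT replicate 1, 9 without WT replicate 2, 10 with no filter on low counts and 1 without overlapped genes. The list summed to 40.7 and 24.7 CPM in D395A and 38.9 and 40.5 CPM in WT. Phox2a, a homeobox factor of noradrenergic neurons, had 3.80 and 4.04 CPM in D395A and 0.374 and 0.322 CPM in WT (3.49 ± 0.06, adjusted p = 5.83e-07, 4.67% overlap). Insm1, a zinc finger factor of neuroendocrine cells, had 6.09 and 3.99 CPM in D395A and 0 and 0.537 CPM in WT (3.97 ± 0.59, adjusted p = 7.14e-06), and its log2 value was 3.19 without WT replicate 1 and 9.23, which is no bound, without WT replicate 2, when no WT read was left. Gata2 had 4.34 and 2.98 CPM in D395A and 12 and 12.4 CPM in WT (-1.78 ± 0.24, adjusted p = 5.11e-07), and Tfap2a 9.59 and 7.66 CPM in D395A and 22.0 and 22.3 CPM in WT (-1.38 ± 0.15, adjusted p = 1.35e-07, 14.6% overlap).

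The paralogues of Tlx2 did not pass the test. Tlx1 had 32 and 9 reads in D395A and 11 and 14 in WT (log2 fold change 0.78, adjusted p = 0.244), and Tlx3 had 49 and 9 reads in D395A and 6 and 22 in WT (1.17, adjusted p = 0.139). For both, D395A replicate 1 was high and D395A replicate 2 lay among the WT libraries or beside them.

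For Htr5a, 8 of 21 serotonin receptors and pathway genes could be tested, of which 2 fell and 4 rose, with a median of 1.09. The count that fell was 1 without D395A replicate 1, without WT replicate 1 and in the DESeq2 Wald test, in each of which Slc18a1, a vesicular monoamine transporter, lost its call. Slc18a2, the vesicular monoamine transporter of neurons, had 34 and 49 reads in D395A and 0 in both WT libraries (adjusted p = 6.61e-07). Htr3a, the serotonin-gated ion channel, had 3.65 and 4.57 CPM in D395A and 0.0747 and 0.161 CPM in WT (4.97 ± 0.18, adjusted p = 1.54e-07), and 5.63 when WT replicate 2 was left out. Htr2b had 11 and 16 reads in D395A and 0 in both WT libraries (adjusted p = 5.11e-05, 11.8% overlap). Ddc, the decarboxylase that makes serotonin, had 15.1 and 13.3 CPM in D395A and 37.4 and 35.5 CPM in WT (-1.36 ± 0.09, adjusted p = 8.78e-09). Without overlapped genes 2 fell and 2 rose, and the median was -0.12, so the sign of the median turns with that choice. Htr5b, the nearest relative of Htr5a, had 1 and 2 reads in D395A and 0 in both WT libraries and was not tested.

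Among lectin chaperones and glycoprotein folding genes, the general machinery to which calmegin is related, 14 of 23 tested genes fell and 6 rose, and their median log2 fold change was -0.23. The count that rose was 3 without WT replicate 1 and 2 without WT replicate 2, and the count that fell was 9 without overlapped genes. Calnexin (Canx), the widely expressed relative of Clgn, had 655 and 661 CPM in D395A and 867 and 877 CPM in WT (-0.41 ± 0.01, adjusted p = 1.25e-04). Calr4, of the calreticulin family, had 13.9 and 13.4 CPM in D395A and 33.6 in each WT library (-1.30 ± 0.03, adjusted p = 9.69e-09). Uggt1, the folding sensor that sends glycoproteins back to calnexin, had 121 and 137 CPM in D395A and 287 and 274 CPM in WT (-1.12 ± 0.09, adjusted p = 3.31e-09). Ganab, the glucosidase that acts after Mogs, had 290 and 319 CPM in D395A and 468 and 473 CPM in WT (-0.63 ± 0.07, adjusted p = 1.61e-06), while Mogs, a neighbour of Tlx2, was the strongest of the 6 that rose. Of 12 fertilization genes tied to calmegin in mice, 4 could be tested. Tpst2, a sulfotransferase, had 75.6 and 68.7 CPM in D395A and 40.0 and 39.9 CPM in WT (0.85 ± 0.07, adjusted p = 1.12e-07), Ace had 0.456 and 0.319 CPM in D395A and 1.2 and 1.56 CPM in WT (-1.86 ± 0.18, adjusted p = 0.00140, 5.58% overlap, so that none fell without overlapped genes), and Adam1a and Calr3 did not pass the test. Adam2 and Adam3, whose proteins calmegin is known to handle, had at most 5 reads in a library.

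For Cacng5, 17 of 25 other voltage-gated calcium channel subunits were tested, and 4 fell and 9 rose, with a median of 0.93. Over all tested genes 34.3% fell and 36.8% rose. Without overlapped genes 2 channel subunits fell and 5 rose. Cacna1d, counted among those that rose, had 55 and 12 reads in D395A and 6 and 17 in WT, and its log2 value of 1.65 was -0.13 without D395A replicate 1. Cacna1b, which also rose, went from 1.01 to 0.58 without that library. Cacna2d3, which fell, went from -1.81 to -0.98 without D395A replicate 2. Cacnb3 had 52.2 and 53.7 CPM in D395A and 14.2 and 15.0 CPM in WT (1.85 ± 0.04, adjusted p = 8.47e-11), and Cacna2d1 22.8 and 20.6 CPM in D395A and 6.05 and 4.88 CPM in WT (2.00 ± 0.16, adjusted p = 7.57e-09). Cacnb1 had 12.6 and 11.3 CPM in D395A and 40.9 and 38.1 CPM in WT (-1.73 ± 0.09, adjusted p = 8.30e-10), and Cacna1a 36.5 and 36.1 CPM in D395A and 97.9 and 84.4 CPM in WT (-1.32 ± 0.11, adjusted p = 2.54e-09). Channel subunits thus moved both ways within the same class of protein. Of the closer relatives, Cacng7 fell to 7.08 and 6.86 CPM in D395A, against 11 and 10.8 CPM in WT (-0.64 ± 0.02, adjusted p = 7.30e-04), Cacng4 is given above, Cacng6 and Cacng8 did not pass the test, and Cacng1, Cacng2 and Cacng3 were not tested.

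On the list of AMPA receptor subunits and partners, 7 of 14 genes were tested, of which 1 fell and 5 rose, with a median of 2.04. Over all tested genes 36.8% rose. The count that rose on this list was 9 with no filter on low counts, and 4 of 6 tested without overlapped genes. Cacng4, which is 1 of the 5, had a log2 fold change of 0.23 without D395A replicate 1. The list summed to 51.4 and 30.1 CPM in D395A and 15.7 and 16.8 CPM in WT. The 2 D395A libraries were far apart in Gria2, with 79 and 0 reads in D395A and 1 and 0 in WT, which was not tested. Dlg4, the scaffold PSD-95, had 10.3 and 9.94 CPM in D395A and 0.672 and 0.805 CPM in WT (3.74 ± 0.08, adjusted p = 3.16e-09). The receptor subunits Gria4 and Gria3 also rose. Gria4 had 5.71 and 3.93 CPM in D395A and 0.224 and 0.322 CPM in WT (4.05 ± 0.26, adjusted p = 3.38e-07), and Gria3 7.08 and 4.68 CPM in D395A and 1.27 and 1.5 CPM in WT (2.04 ± 0.29, adjusted p = 1.24e-05). Cnih2, a partner of the receptor on its way to the membrane, had 4.11 and 2.66 CPM in D395A and 0.448 and 0.912 CPM in WT (2.21 ± 0.40, adjusted p = 9.98e-05), and 2.87 without WT replicate 2. Most tested genes of this list were thus higher in D395A cells, in which Cacng5 had 2 reads in all.

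**Figure D5:**
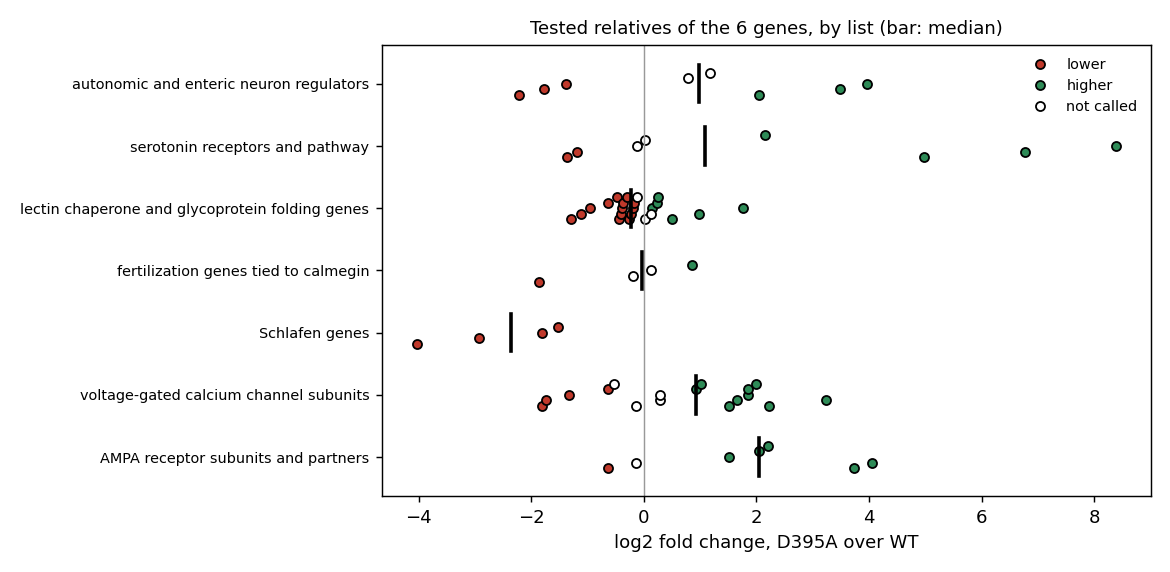
Log2 fold change (D395A over WT) of the tested genes of 7 lists of relatives. Each point is a gene, red fell, green rose and white did not pass the test, and the black bar is the median of the list. The Schlafen list lies wholly below 0, while the AMPA receptor list has its median at 2.04.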

How the data were processed

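RNA-seq and m6A peak lists of D395A and WT mouse embryonic stem cells were used, 10 of 56 samples, and the others are not analysed here. The deposited table holds raw read counts per gene with exon coordinates in the layout of featureCounts, per the file headers. The sources used here give no strand setting for it. Its column Da95A_1 was read as replicate 1 of D395A. Peak lists are in the deposited MACS2 layout, and their fold enrichment and -log10 q are the authors' values. The WT list stops at a q of 0.05 and the D395A list holds peaks with a q of up to 1, so the thresholds differ. How the WT libraries were combined is not stated, and 2 unlabelled columns of the WT list were left aside. The submitters' processing notes name mm10, HISAT2 2.1.0, featureCounts 1.6.3, MACS2 2.1.1 and edgeR 3.22.5, with no roles.

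Counts were fitted in R 4.3.3 with edgeR 4.0.16 (filterByExpr, 17778 of 52459 genes kept; TMM factors 1.034 and 1.038 in D395A, 0.9606 and 0.9697 in WT; quasi-likelihood test, Benjamini-Hochberg adjustment over all tested genes, threshold 0.05). Replicates differed by more than counting error (chi-square per degree of freedom 5.89 in D395A and 2.50 in WT), and the biological coefficient of variation was 5.47%. Counts were also simulated for 17778 genes, a small part of which were given a change. Of genes with log2 changes of -3, -1, 1 and 3, 100%, 82%, 68% and 100% were called. Every simulated gene had the same dispersion (0.003), so the shares need not hold for genes that vary more. Intervals for the D395A level as a percent of WT are exact, at 95%, over reads summed by group, and cover counting error only. The SE beside a log2 fold change is that of the difference in mean log2(CPM + 0.5), not of the fitted value. Exonic overlap came from the table's coordinates, and peaks were assigned by 1 base or more within the gene body (bedtools 2.31.1). Promoters are RefSeq windows of 300 bases on GRCm38.p6, aligned with Biopython 1.88. Other steps ran in Python 3.11.15 with pandas 2.3.3, numpy 2.4.6 and scipy 1.17.1.

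The 6 genes and the lists were chosen with earlier results of these data known. Named besides the 6 were every called neighbour and the nearest tested neighbour on each side, up to 4 called genes a list with the smallest adjusted p, the gene nearest by profile to each of the 6, the next 3 genes outside the choice, and Mettl3. Other names were added after their values were seen. Alternatives were the size factors of DESeq2 1.42.0, its Wald test, no filter, a replicate block, each library left out (the single library that remains is taken to vary as the other genotype does), windows of 50 and 200 kb, no opposite-strand overlap, and stricter peaks. Same-numbered libraries did not deviate together (correlation 0.031), so the numbers were not taken to pair them.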

Additional observations from a re-analysis of the deposited data

How the results depend on the processing

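The log2 differences of the 6 genes stayed below 0 in all settings, but were lower or higher without a D395A library, as reads there are few: the ranges with each library left out were -7.79 to -6.05 for Tlx2, -6.83 to -6.59 for Htr5a, -7.50 to -5.76 for Clgn, -5.50 to -5.02 for Slfn8, -6.55 to -5.84 for Gm33027 and -10.47 to -6.66 for Cacng5. Genes called lower numbered 6093, with 5125 to 6009 when a library was left out and 4725 in the DESeq2 Wald test; those called higher numbered 6550, with 6032 to 6688 and 5622. With a replicate block they were 6239 and 6656, and the counts of neighbours called stayed at 15 lower and 6 higher; the numbers do not pair the libraries (correlation 0.031).

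Neighbours called lower were 15 within 100 kb, 25 within 200 kb, 9 without those of Tlx2, and 15 to 16 with a library left out. Neighbours called higher were 6 within 100 kb, 2 within 50 kb, 10 within 200 kb, 3 without opposite-strand overlap, 1 without those of Tlx2, and 3 to 6 with a library left out, 3 being the count without WT replicate 1. The settings without neighbours of a gene were added after the data were seen. Of the genes on the lists, 28 fell and 27 rose, and 18 and 17 did when overlapped genes were left out; with a library left out, 21 to 27 fell and 24 to 37 rose. The fitted value of Cacna1d changed sign with a library left out (-0.13, against 1.65), and the medians of the serotonin and fertilization lists did without overlapped genes (-0.12, against 1.09, and 0.13, against -0.04). D395A peaks within 100 kb numbered 15, and 0 at a q of at most 0.01 or, a setting added later, of at most 0.05, while the 72 WT peaks were 72 in each setting. Among the limits is depth: with 0 to 8 reads a library, the counting interval of the remaining level runs from 1.42 to 4.08% of WT for Slfn8 and from 0.064 to 1.93% for Cacng5.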

Other observations

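Besides the 6 genes, 16 others without opposite-strand overlap averaged at least 10 CPM in WT and under 1 CPM in D395A, and these names were taken after their values were seen. Among them were Pramel6, of a family active in early embryos, at 0 CPM in D395A and 10.0 CPM in WT, Hoxc12, a homeobox gene, at 0.437 CPM in D395A and 13.7 CPM in WT, and the stem cell non-coding RNA Platr3, at 0.312 CPM in D395A and 11.9 CPM in WT. A D395A peak was in 2 of the 16 and a WT peak in 13, beside 52.6% and 66.5% of all tested genes. These genes had little RNA in D395A cells, so a lack of m6A on them cannot be told apart from a lack of RNA.

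The D395A libraries were far apart in 4 genes of the lists, picked after their values were seen. Gria2 had 79 and 0 reads in the D395A libraries and 1 and 0 in WT, Shisa9 30 and 1 in D395A and 0 in both WT libraries, Cacng2 22 and 0 in D395A and 1 and 0 in WT, and Htr7 25 and 0 in D395A and 0 and 1 in WT. Other genes of these lists were not, with 93 and 88 reads of Gria3 and 75 and 74 of Gria4 in D395A, and 17 and 28 of Gria3 and 3 and 6 of Gria4 in WT. Of the 6 genes, Tlx2 and Clgn had more reads in D395A replicate 1 (5 and 2 in D395A for each), Slfn8 had 8 in both, and Htr5a, Gm33027 and Cacng5 had more in D395A replicate 2.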
